A study of Mus musculus with 4 samples.

Results

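The genes described here are 9 imprinted regulators of growth and adipogenesis, namely Dlk1, Meg3, Mest, Peg3, Igf2, H19, Cdkn1c, Grb10 and Plagl1. They were followed in the open chromatin of im-scWAT cells, immortalized lines of stromal cells from mouse subcutaneous white adipose tissue that can be turned into beige adipocytes. Every ATAC-seq peak whose summit lay within 50 kb of an annotated transcription start site (TSS) of a member was taken, which gave 123 peaks in the 4 peak lists. Peaks that overlapped by 1 bp or more were joined into sites, and 53 of the 100608 sites of the genome belonged to the 9 genes, of 33924 annotated genes. No site was counted for more than 1 member. Grb10 had 14 sites, Dlk1 had 9, Mest had 8, Meg3 and Cdkn1c had 5 each, Peg3 had 4, Igf2 and Plagl1 had 3 each, and H19 had 2. The median over all protein-coding genes was 7 sites.

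The 4 libraries were wild-type cells (Jmjd1a +/+, written WT) and homozygous mutant cells (Jmjd1a HY/HY, written HY), each taken before induction (D0) and on day 8 of beige differentiation (D8). HY cells carry a histidine-to-tyrosine change in the catalytic part of JMJD1A, an enzyme that removes methyl groups from lysine 9 of histone H3. All cells were immortalized with the same viral large T antigen, and both D8 cultures had received indomethacin, dexamethasone, 3-isobutyl-1-methylxanthine, rosiglitazone, insulin and T3. WT and HY cells came from different mice, with 1 library for each genotype and day, so genotype and culture cannot be told apart and no difference below has a replicate check. The peak lists hold no signal for places without a called peak and cannot separate the parental alleles, and ATAC-seq measures neither DNA methylation nor transcription.

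An imprinted gene is transcribed mainly from the maternal or mainly from the paternal chromosome, according to DNA methylation laid down at a control region in the germ line. Many such genes set how fast tissues grow, and several act on fat cell precursors. DLK1 is a membrane protein that restrains adipogenesis and is known as a preadipocyte marker. IGF2 is a growth factor, CDKN1C an inhibitor of the cell cycle, and GRB10 an adaptor that damps signalling from the insulin receptor. At a control region upstream of H19, the factor CTCF binds the maternal copy and insulates Igf2 from enhancers, and ZFP57 binds methylated control regions through the letters TGCCGC.

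The libraries held 71523 peaks (WT D0), 41228 (WT D8), 77994 (HY D0) and 48964 (HY D8). For each peak the summit pileup, a whole number of overlapping tags (the peak caller's word for sequenced reads or fragments), was recovered together with the local background against which the peak was called. The lowest background of a list served as its sequencing rate. Relative to WT D0, the rate was 1.07 in HY D0, 0.806 in WT D8 and 0.75 in HY D8, so D0 libraries were deeper and could show weaker peaks. The lowest pileup called was 5 in the first 3 libraries and 4 in HY D8. Ratios between libraries are pileups divided by these rates, and intervals are exact 95% limits that cover counting error only. A ratio compares the strongest peak of each library within a site, whose summits can differ in place. Over the 77 member ratios the summits lay a median of 44 bp apart, and 8 pairs were over 250 bp apart. Marker promoters followed the labelled days. Promoters of adipocyte genes had a peak for 3 of 8 at D0 and 7 of 8 at D8 in both genotypes, and Fabp4 had none at D0 and a pileup of 46 in each D8 library. Of 8 preadipocyte and fibroblast promoters, WT had a peak at 7 on D0 and 3 on D8, and HY at 6 and 3. Among these, Pdgfra, a receptor that marks preadipocytes, had 50 in WT D0 and no summit within the promoter in HY D0 or at D8. Only summits within the promoter were counted, so a lost peak and a shifted summit cannot be told apart there. Endothelial promoters had a peak for 3, 0, 2 and 1 of 5, with Kdr at 21 in both D0 libraries, while macrophage and leukocyte (5 genes) and muscle (4 genes) promoters had none. Beige promoters had 0, 2, 1 and 2 of 4, and Ucp1 and Dio2 had none in any library. The Kdm3a (Jmjd1a) promoter had a peak in all 4, which does not check a change within the coding sequence. The Y chromosome held 1 peak in each WT list and 7 and 6 in the HY lists.

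Sequences are shown for the member sites on which the results turn. Each is a window of 300 bases around the site's strongest summit, on the plus strand of mm9 in the 5′ to 3′ direction, and a site is named by its distance in the direction of transcription from the most upstream TSS of the gene. Capitals mark matches, on either strand, to the letters GGNGGCAG (CTCF), TGANTCA (AP-1), TTGCNNAA (C/EBP), CCCNNGGG (EBF), GGTCANAGG (PPAR:RXR) and TGCCGC (ZFP57). The first set holds the strongest Dlk1 site and the site upstream of H19, both called at D0. The windows are chr12:110656101-110656400 (intergenic) and chr7:149766084-149766383 (intergenic).

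Dlk1 -34.8 kb: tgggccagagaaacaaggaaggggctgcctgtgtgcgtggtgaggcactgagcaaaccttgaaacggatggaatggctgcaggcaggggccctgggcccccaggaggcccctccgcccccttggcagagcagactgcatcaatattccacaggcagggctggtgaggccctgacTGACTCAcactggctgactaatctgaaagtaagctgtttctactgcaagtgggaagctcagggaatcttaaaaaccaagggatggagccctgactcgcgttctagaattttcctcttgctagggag
H19 -2.2 kb: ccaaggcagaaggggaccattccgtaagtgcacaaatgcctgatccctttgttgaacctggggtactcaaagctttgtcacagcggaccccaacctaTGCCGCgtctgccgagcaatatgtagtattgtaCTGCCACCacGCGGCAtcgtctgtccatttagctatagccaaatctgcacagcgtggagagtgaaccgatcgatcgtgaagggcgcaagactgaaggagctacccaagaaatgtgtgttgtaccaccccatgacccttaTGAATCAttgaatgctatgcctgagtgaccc

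The second set holds 3 sites that were called, or were stronger, at D8. They are chr11:11865727-11866026 and chr11:11863616-11863915, both in an intron of Grb10, and chr7:150619259-150619558, which is intergenic beyond the 3′ end of Cdkn1c.

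Grb10 +72.8 kb: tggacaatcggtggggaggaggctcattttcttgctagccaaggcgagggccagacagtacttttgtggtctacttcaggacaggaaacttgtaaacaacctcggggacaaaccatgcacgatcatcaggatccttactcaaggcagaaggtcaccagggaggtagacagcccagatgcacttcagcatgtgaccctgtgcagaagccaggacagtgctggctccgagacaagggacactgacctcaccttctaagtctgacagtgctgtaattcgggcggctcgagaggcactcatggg
Grb10 +74.9 kb: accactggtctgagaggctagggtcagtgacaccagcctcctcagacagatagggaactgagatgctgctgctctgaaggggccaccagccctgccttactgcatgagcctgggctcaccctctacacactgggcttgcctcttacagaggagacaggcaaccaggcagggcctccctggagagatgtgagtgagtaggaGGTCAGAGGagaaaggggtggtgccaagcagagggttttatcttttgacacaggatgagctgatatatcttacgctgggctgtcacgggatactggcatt
Cdkn1c +27.5 kb: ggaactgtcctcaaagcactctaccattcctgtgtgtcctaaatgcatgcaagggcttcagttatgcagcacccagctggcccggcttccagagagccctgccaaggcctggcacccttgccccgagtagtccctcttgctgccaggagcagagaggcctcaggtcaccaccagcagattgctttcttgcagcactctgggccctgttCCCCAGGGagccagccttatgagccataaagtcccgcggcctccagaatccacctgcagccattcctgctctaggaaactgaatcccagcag

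The third set holds sites called in all 4 libraries and, by scaled pileup, more than 1.5-fold lower at D8 in HY. They are chr11:11839641-11839940 in an intron of Grb10, and chr7:6682103-6682402 and chr7:6681144-6681443, both in an intron of Peg3 just downstream of its TSS.

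Grb10 +98.9 kb: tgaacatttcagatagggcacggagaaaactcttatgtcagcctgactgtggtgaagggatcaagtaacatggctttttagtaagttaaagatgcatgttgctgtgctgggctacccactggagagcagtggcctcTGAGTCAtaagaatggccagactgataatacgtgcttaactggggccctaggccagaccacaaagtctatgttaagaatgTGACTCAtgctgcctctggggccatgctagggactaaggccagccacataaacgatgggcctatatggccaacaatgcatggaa
Peg3 +0.9 kb: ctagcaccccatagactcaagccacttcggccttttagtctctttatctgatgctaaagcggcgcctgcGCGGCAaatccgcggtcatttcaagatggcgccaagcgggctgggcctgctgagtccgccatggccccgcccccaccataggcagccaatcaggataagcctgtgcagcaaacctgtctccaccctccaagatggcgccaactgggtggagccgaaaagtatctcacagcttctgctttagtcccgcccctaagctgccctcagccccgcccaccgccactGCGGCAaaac
Peg3 +1.8 kb: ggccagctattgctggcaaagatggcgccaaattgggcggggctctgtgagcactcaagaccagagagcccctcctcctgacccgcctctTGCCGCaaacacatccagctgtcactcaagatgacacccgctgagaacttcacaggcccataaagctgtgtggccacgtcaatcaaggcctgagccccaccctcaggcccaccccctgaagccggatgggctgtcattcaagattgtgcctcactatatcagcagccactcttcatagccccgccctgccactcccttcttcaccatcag

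The TGCCGC letters lay in 11 of the 53 member windows (20.8%), beside 7.05% of all 100597 windows that could be read. AP-1 letters lay in 4 (7.55%, beside 25.6%), CTCF letters in 5 (9.43%, beside 12.1%), C/EBP letters in 5 (9.43%, beside 15.9%) and EBF letters in 9 (17%, beside 13.3%). The PPAR:RXR letters lay in 2 (3.77%, beside 1.99%), both in Grb10, at +74.9 kb and +77.6 kb. The Dlk1 window had 1 AP-1 match and the Grb10 +98.9 kb window had 2. The H19 window held 1 CTCF match, 2 ZFP57 matches and 1 AP-1 match, with a second CTCF match elsewhere in the site. Both Peg3 windows held ZFP57 letters, the Cdkn1c window an EBF match and the Grb10 +72.8 kb window none. The C and G share of the 8 windows ran from 48.3% in Grb10 +98.9 kb to 60.3% in Peg3 +0.9 kb, which had 17 CpG pairs. A match describes the letters only.

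Across the 9 genes the loss of peaks from D0 to D8 was close to that of the genome. Of the 53 sites, WT cells had a peak at 38 on D0 and 19 on D8, and HY cells at 36 and 25. In WT, 25 of 44 sites were called only at D0 (56.8%, beside 52.7% of all sites) and 6 of 44 only at D8 (13.6%, beside 12.1%). In HY, 19 of 44 were called only at D0 (43.2%, beside 49.3%) and 8 of 44 only at D8 (18.2%, beside 13.7%). Between genotypes at D0, 6 of 44 were called only in HY (13.6%, beside 21.7%) and 8 of 44 only in WT (18.2%, beside 12.1%). At D8, 8 of 27 were called only in HY (29.6%, beside 26.3%) and 2 of 27 only in WT (7.41%, beside 9.53%). Sites near a gene are not independent, and shares this near the background are no result about the set. The counts per gene spread widely around them.

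**Figure D1:**
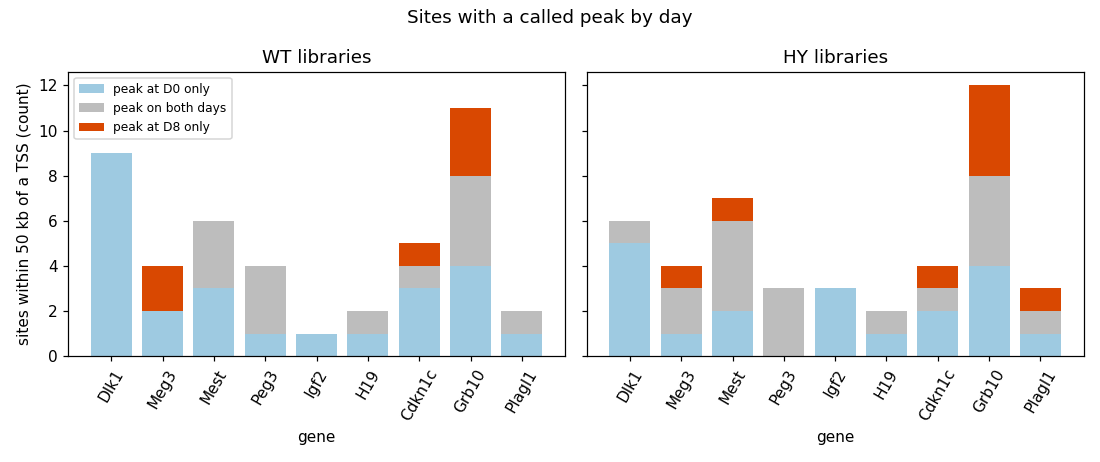
Number of sites of each of the 9 genes by the days on which a peak was called, in WT (left) and HY (right), as stacked bars whose heights count sites. Dlk1 has 9 sites called only at D0 in WT, while Grb10 has 3 called only at D8 in WT and 4 in HY.

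**Figure D2:**
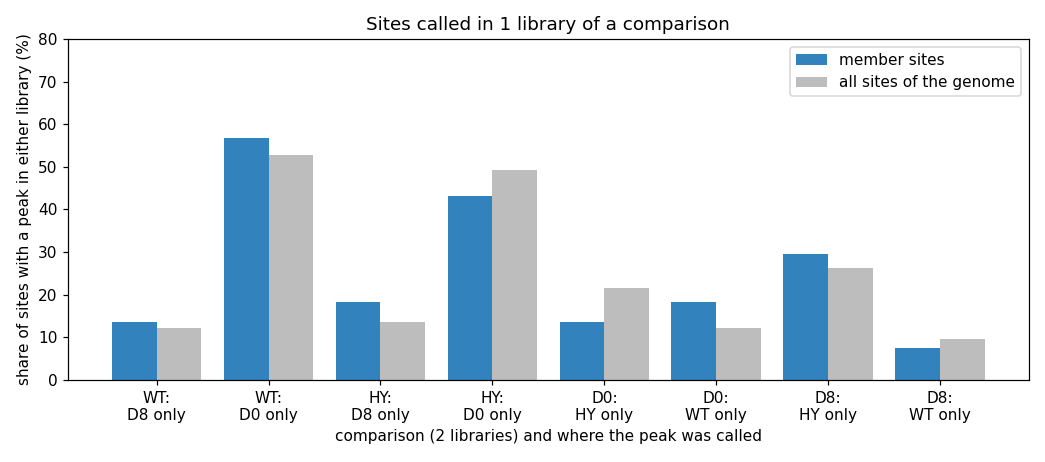
Percent of the 9 genes' sites called in a single library of each pair of libraries (blue), beside the percent of all sites of the genome (grey), out of sites with a peak in either library. The widest gap between paired bars is at D0 for peaks in HY only, with 13.6% of member sites and 21.7% of all.

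Sites called in both libraries gave a second reading. In WT, 0 of 13 member sites were at least 2-fold lower at D8, beside 14.7% of all sites, and 1 was at least 2-fold higher (7.69%, beside 4.78%). In HY, 7 of 17 were at least 2-fold lower (41.2%, beside 17.2%) and 1 was at least 2-fold higher (5.88%, beside 5.27%). The median log2 ratio of D8 over D0 was -0.11 for the member sites and -0.16 for all sites in WT, and -0.39 and -0.18 in HY. By fold enrichment over local background in place of scaled pileup, 4 of the 17 HY sites were at least 2-fold lower (23.5%, beside 10.6%), and after centring on the median of shared sites also 4 (23.5%, beside 12.7%). Of the 7 lower sites in HY, 3 had no D8 peak in WT and so had no ratio there. Between genotypes, 1 of 30 sites passed 2-fold at D0 (3.33%, beside 3.64%) and 1 of 17 at D8 (5.88%, beside 2.19%). These were Grb10 +77.6 kb and Peg3 +33.9 kb.

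In all, 12 sites had a peak in every library (22.6%, beside 24.2% of all sites), 6 in 3 libraries (11.3%, beside 10.3%), 17 in 2 (32.1%, beside 32.6%) and 18 in 1 (34%, beside 32.9%). Sites called in a single library were weak, with a median highest pileup of 8.5, beside 25.5 for sites called in all 4. Over the whole genome these medians were 8 and 35. Called at D0 in both genotypes and at D8 in neither were 14 of the 53 sites, beside 24.6% of all sites. The reverse held for 3 of 53, beside 5.99%, namely Meg3 -9.2 kb, Cdkn1c +27.5 kb and Grb10 +72.8 kb. No site was called on both days of one genotype and on neither day of the other, a class that held 1.22% of all sites.

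**Figure D3:**
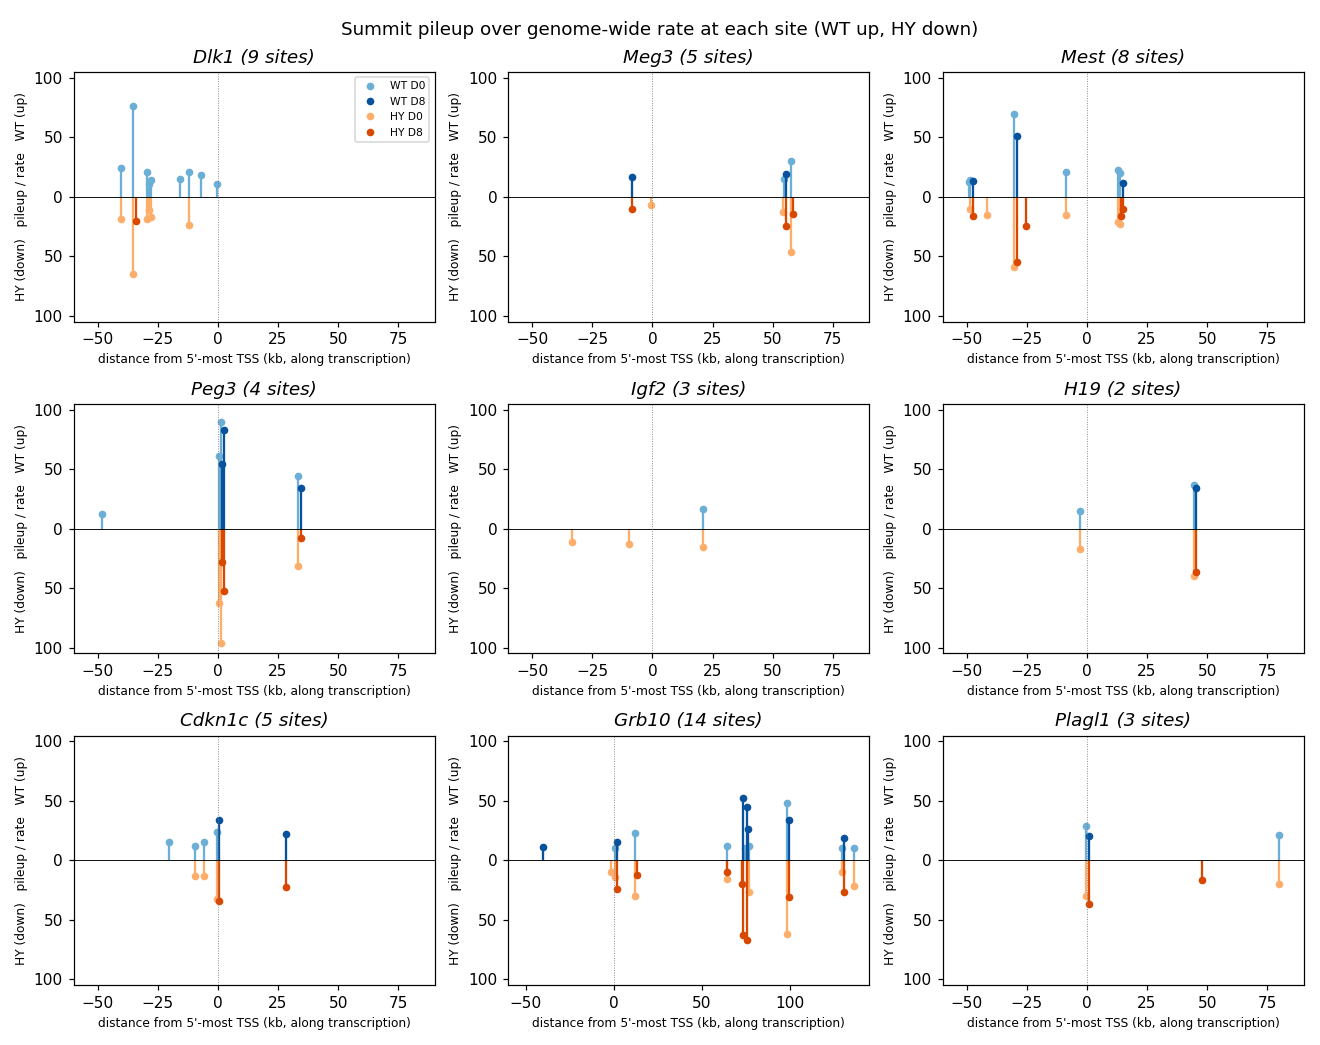
Summit pileup over the rate of the library (a depth-scaled level with no unit) of every member site against the distance in kb from the most upstream TSS along transcription, 1 panel per gene, with WT drawn upward and HY downward. D0 and D8 stems of a site are set slightly apart, a missing stem means no called peak, and the Grb10 panel has a wider distance axis. The Dlk1 panel holds a single D8 stem, in HY, while tall D8 stems of both genotypes stand inside Grb10.

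Dlk1 (ENSMUSG00000040856.11, chr12:110691033-110701546, plus strand) had sites called mainly at D0. All 9 of its sites were called in WT D0 and none in WT D8, while 6 were called in HY D0 and 1 in HY D8. Among protein-coding genes with at least 5 sites in a genotype, 1.35% (173 of 12839) had every site called only at D0 in WT and 0.831% (115 of 13838) in HY, where Dlk1 itself was not among them. Of its 9 sites, 8 were intergenic and lay upstream of the gene, from -39.9 kb to -6.6 kb. The nearest annotated TSS of all 9 was that of Dlk1.

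The strongest of them, at -34.8 kb (chr12:110655595-110656427), had a pileup of 50 in WT D0, 46 in HY D0 and 10 in HY D8, and no peak in WT D8. The exact intervals of these pileups were 37.1 to 65.9, 33.7 to 61.4 and 4.8 to 18.4. The site was thus high in both D0 libraries and low or uncalled in both D8 libraries. Of the 3950 sites in the genome with a pileup of 50 or more in WT D0, 78 (1.97%) had no peak in WT D8. In HY the scaled ratio of D8 over D0 was 0.311 (0.14 to 0.625). The local background there was 3.04 in HY D0 and 0.494 in HY D8, and the ratio of fold enrichments was 0.634, which is short of 2-fold. At D0 the ratio of HY over WT was 0.857 (0.561 to 1.3), an interval that includes 1.

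Of the weaker sites, the one at -39.9 kb had 16 (WT) and 13 (HY) at D0. The -29.0 kb site had 14 and 13, and the -11.3 kb site 14 and 17, again at D0 alone. Between them the -28.0 kb site had 7 and 8, and the -27.3 kb site 9 and 12, from summits 361 bp apart. Called only in WT D0 were the sites at -15.0 kb (10), at -6.6 kb (12) and at the promoter (7), where the summit lay in a UTR exon at -223 bp from an internal TSS. These 3 pileups lay between the lowest called in that list, 5, and its median of 15. With only peaks of -log10 q of 5 or more, 5 of 5 Dlk1 sites were called only at D0 in WT and 4 of 5 in HY (52.9% and 52.3% of all sites). With lists of equal length it was 3 of 3 in WT and 1 of 2 in HY (31.7% and 30.2% of all sites). Within 100 kb it was 11 of 12 in WT and 8 of 10 in HY (52.7% and 49.3% of all sites), with 1 site called only at D8 in each. Fibroblast and endothelial promoters also lost peaks between the same libraries, as given above, and the part of culture composition in the Dlk1 values was not tested.

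Meg3 (ENSMUSG00000021268.10, chr12:110779211-110809936, plus strand) is the maternally expressed long noncoding RNA of the same cluster, and growth-restraining functions are known for it. Its own promoter had a peak in HY D0 alone, 2 bp upstream of the TSS with a pileup of 5, at the lowest level called. A site at -9.2 kb was called only at D8, with 9 in WT and 5 in HY, a ratio of HY over WT of 0.597 (0.157 to 1.98). The other 3 sites lay at 55.0 kb to 58.0 kb from the TSS, in an intron of Rtl1, the retrotransposon-derived gene of the cluster. Their nearest annotated TSS was that of Mir136 or Rtl1. The +58.0 kb site had 20 in WT D0, 33 in HY D0 and 7 in HY D8, with no peak in WT D8. It was high at D0 in both genotypes, and the HY ratio of D8 over D0 was 0.304 (0.113 to 0.698). Loss of a peak this high was common, since 26.2% of the 24672 sites with 20 or more in WT D0 had none in WT D8. Its neighbour at +55.0 kb had 9 in HY D0 and D8 pileups of 10 (WT) and 12 (HY). WT D0 had no peak there and a peak of 10 at +55.3 kb.

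Igf2 (ENSMUSG00000048583.9, chr7:149836673-149852721, minus strand) had no peak at its promoters in any library. Its 3 sites were weak and confined to D0. The +21.6 kb site beyond its 3′ end, whose nearest annotated TSS was that of Mir483, had 11 in each D0 library. The -9.0 kb site and the -32.7 kb site at the Ins2 TSS were called in HY D0 only, with 9 and 8.

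H19 (ENSMUSG00000000031.9, chr7:149761434-149764048, minus strand), a maternally expressed noncoding RNA whose control region also governs Igf2, likewise had no promoter peak. A site at -2.2 kb (chr7:149766161-149766775) had a D0 pileup of 10 in WT and 12 in HY, and no peak in either D8 library. Both genotypes thus had a peak in this site at D0 alone. The HY D0 peak (149766161 to 149766766) covered nearly all of the site, with its summit at 149766234. WT D0 had 2 peaks in this site, both with a pileup of 10. The first (149766210 to 149766483) had its summit 34 bp from the HY summit, and the second (149766625 to 149766775) lay at the distal end. The second was ranked higher by the caller, so the pileups set side by side are from different positions and no ratio is given. The printed window with CTCF letters is centred on the HY summit. It lies on the side of H19 where the control region is known to be, whose coordinates were not used here. The other H19 site, at +44.9 kb, lay at the 5′ end of Mrpl23, a gene of the mitochondrial ribosome, in an intron 192 bp downstream of a TSS, with 24 at D0 and 18 at D8 in WT, and 28 and 18 in HY. The D0 and D8 summits lay 307 bp apart in WT and 306 bp apart in HY, so no ratio between days is given. WT D8 also had a peak of 16 with its summit 8 bp from that of HY D0. Between genotypes the summits lay 3 bp apart at D0 and 2 bp at D8, with ratios of HY over WT of 1.09 (0.607 to 1.96) and 1.07 (0.527 to 2.19).

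Cdkn1c (ENSMUSG00000037664.6, chr7:150644255-150646955, minus strand) was open at its promoter throughout. The promoter site (chr7:150646705-150647157, in a UTR exon) had 16 at D0 and 18 at D8 in WT, and 23 and 17 in HY. The D8 over D0 ratio in WT was 1.4, with limits of 0.672 and 2.93, and the HY ratio was 1.06 (0.531 to 2.07), so no change was detectable at this depth. Summits at this site lay up to 133 bp apart. Upstream, the -9.1 kb site had 8 and 9 and the -5.4 kb site 10 and 9 in WT D0 and HY D0, with no D8 peak, and the -19.7 kb site in an intron of Slc22a18 was called in WT D0 alone, with 10. With lists of equal length, none of the Cdkn1c sites was called only at D0, 0 of 2 in WT and 0 of 2 in HY (31.7% and 30.2% of all sites). On the other side, the +27.5 kb site (chr7:150619220-150619542) was called only at D8, with 12 in WT and 11 in HY. Its D8 ratio between genotypes was 0.985 (0.394 to 2.44).

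Grb10 (ENSMUSG00000020176.10, chr11:11830511-11938686, minus strand) had 7 sites with a peak at D8 in WT and 8 in HY. Of its sites, 3 of 11 in WT and 4 of 12 in HY were called only at D8. Genes with at least 3 such sites made up 9.35% of protein-coding genes in WT and 11.5% in HY, so a count of this kind was not rare. By lists of equal length the Grb10 counts were 6 of 8 and 4 of 8, where 25.5% of all sites were called only at D8 in each genotype.

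The intronic +72.8 kb site (chr11:11865593-11866137) had a D8 pileup of 28 in WT and 31 in HY, and no peak at D0. Both D8 values, with intervals of 18.6 to 40.5 and 21.1 to 44, were far above the lowest pileup called at D0. Of sites this high at D8, 6.65% in WT (of 7784) and 6.07% in HY (of 7021) had no D0 peak. Farther into the gene, the +74.9 kb site (chr11:11863645-11863861) had 7 in WT D0, 24 in WT D8 and 33 in HY D8, with no peak in HY D0. Its WT ratio of D8 over D0 was 4.26 (1.78 to 11.7), the single member site at least 2-fold higher at D8 in WT, and the ratio of fold enrichments was 2.09. In HY, 5.33% of the 6170 sites as high at D8 had no D0 peak. The genotypes were close at D8, with ratios of HY over WT of 1.19 (0.69 to 2.06) at +72.8 kb and 1.48 (0.847 to 2.61) at +74.9 kb. Nearby, the +75.9 kb site had 14 in WT D8 alone and the +72.4 kb site 10 in HY D8 alone.

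The remaining Grb10 sites were mixed. The intronic +98.9 kb site (chr11:11839435-11839953) had 32 at D0 and 18 at D8 in WT, and 44 and 15 in HY. Both D0 values were above both D8 values, and the ratio of D8 over D0 in WT was 0.698 (0.369 to 1.28), beside an HY ratio of 0.488 (0.252 to 0.894), which was 0.529 by fold enrichment. The +12.7 kb site in a UTR exon, 384 bp downstream of an internal TSS, had 15 in WT D0, 21 in HY D0 and 6 in HY D8, and none in WT D8. The +77.6 kb site had 8 in WT D0 and 19 in HY D0, a ratio of 2.21 whose interval (0.924 to 5.84) included 1. At the site near +1.3 kb, with its strongest summit 8 bp upstream of a TSS, pileups were 7 at D0 and 8 at D8 in WT. They were 10 and 12 in HY, and every interval of a ratio included 1. Summits of this site lay up to 335 bp apart, that between the D0 libraries. For the WT D0 peak the deposited values also allowed a pileup of 4. A second promoter site at -0.7 kb was called in HY D0 alone, with 7. The HY D0 summit of the +1.3 kb site lay farther downstream than the promoter rule allows, so the HY D0 promoter value was this 7. Of the weak sites, +65.2 kb had 8 (WT) and 11 (HY) at D0 only, +63.7 kb had 5 in HY D8 alone and -40.7 kb had 6 in WT D8 alone. Downstream of the gene, the +130.4 kb site had 7 in each D0 library and D8 pileups of 10 (WT) and 13 (HY), and the +137.0 kb site had D0 pileups of 7 (WT) and 15 (HY). By scaled pileup, the HY ratio at +130.4 kb was the member set's only one at least 2-fold higher at D8 in HY. It was 2.66 (0.986 to 7.87), and 1.85 by fold enrichment. The summits behind it lay 98 bp apart, with the D8 summit outside the D0 peak, so the pileups of 7 and 13 are from different positions. At Meg3 +55.0 kb the HY ratio of D8 over D0 was 1.91 (0.738 to 5.13), but 2.25 by fold enrichment and 2.15 after centring.

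Mest (ENSMUSG00000051855.8, chr6:30673547-30698457, plus strand), a paternally expressed gene whose product is related to hydrolases and is linked to fat cell enlargement, was open at an internal start throughout. This +14.5 kb site (chr6:30687905-30688237, a UTR exon, 7 bp downstream of a TSS) had 13 at D0 and 6 at D8 in WT, and 16 and 5 in HY. D0 was higher than D8 in both genotypes, with a WT ratio of 0.573 (0.179 to 1.62) and an HY ratio of 0.448 (0.128 to 1.28), and both intervals include 1. The WT D8 and HY D8 peaks of this site do not overlap each other, and their summits lay 171 bp apart. The adjacent +13.5 kb site had 15 in WT D0, 15 in HY D0 and 8 in HY D8, with no WT D8 peak. At -29.8 kb the promoter of Tsga14 had 46 at D0 and 27 at D8 in WT, and 42 and 27 in HY, with ratios of 0.729 in WT, from summits 252 bp apart, and 0.921 in HY, from summits 16 bp apart. The 5 remaining sites had pileups of 7 to 14, and 3 of them were called in 1 library each.

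Peg3 (ENSMUSG00000002265.8, chr7:6656603-6683132, minus strand), a paternally expressed zinc finger protein, held the member site with the highest pileup. The +1.8 kb site in its intron (chr7:6680110-6681732) had 59 at D0 and 44 at D8 in WT, and 68 and 26 in HY. The +0.9 kb site beside it (chr7:6682115-6682444) had 40, 29, 44 and 14 in the same order. At both sites HY D8 was the lowest of the 4 libraries, also after scaling for depth. The WT ratio of D8 over D0 was 0.926 (0.612 to 1.39) at +1.8 kb and 0.9 (0.538 to 1.49) at +0.9 kb. In HY it was 0.548 (0.334 to 0.872) and 0.456 (0.231 to 0.847) by scaled pileup, but 0.921 and 0.787 by fold enrichment over local background, so most of the difference was gone and the 2-fold call at +0.9 kb was lost. The D8 ratio of HY over WT was 0.635 (0.375 to 1.05) and 0.519 (0.253 to 1.01), intervals that just include 1, and at D0 it was 1.07 and 1.02. By fold enrichment the D8 ratio was 0.793 and 0.663, and after centring on the median of shared sites 0.572 and 0.468, the latter past 2-fold. Local background at these sites was high, at 7.92 (D0) and 4.74 (D8) in WT and 9.22 and 3.34 in HY for +1.8 kb. The +1.8 kb site also spans several peaks in each D8 list, of which the strongest was used, and its summits lay up to 211 bp apart.

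The promoter of Zim1, the imprinted zinc finger gene next to Peg3, was the +33.9 kb site (chr7:6648953-6649398), with 29 at D0 and 18 at D8 in WT, and 22 and 4 in HY. HY D8 was again lowest, and 4 was the lowest pileup of that list. The HY ratio of D8 over D0 was 0.26 (0.0652 to 0.767), beside 0.77 (0.403 to 1.44) in WT. At D8 the ratio of HY over WT was 0.239 (0.0588 to 0.725), by scaled pileup the only member site past 2-fold between genotypes on that day. Here fold enrichment gave nearly the same ratios, 0.248 for HY D8 over D0 and 0.282 for HY over WT at D8. All 3 sites of the domain with a peak in every library thus had WT above HY at D8. The last Peg3 site, at -47.5 kb, was called in WT D0 alone, with 8.

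**Figure D4:**
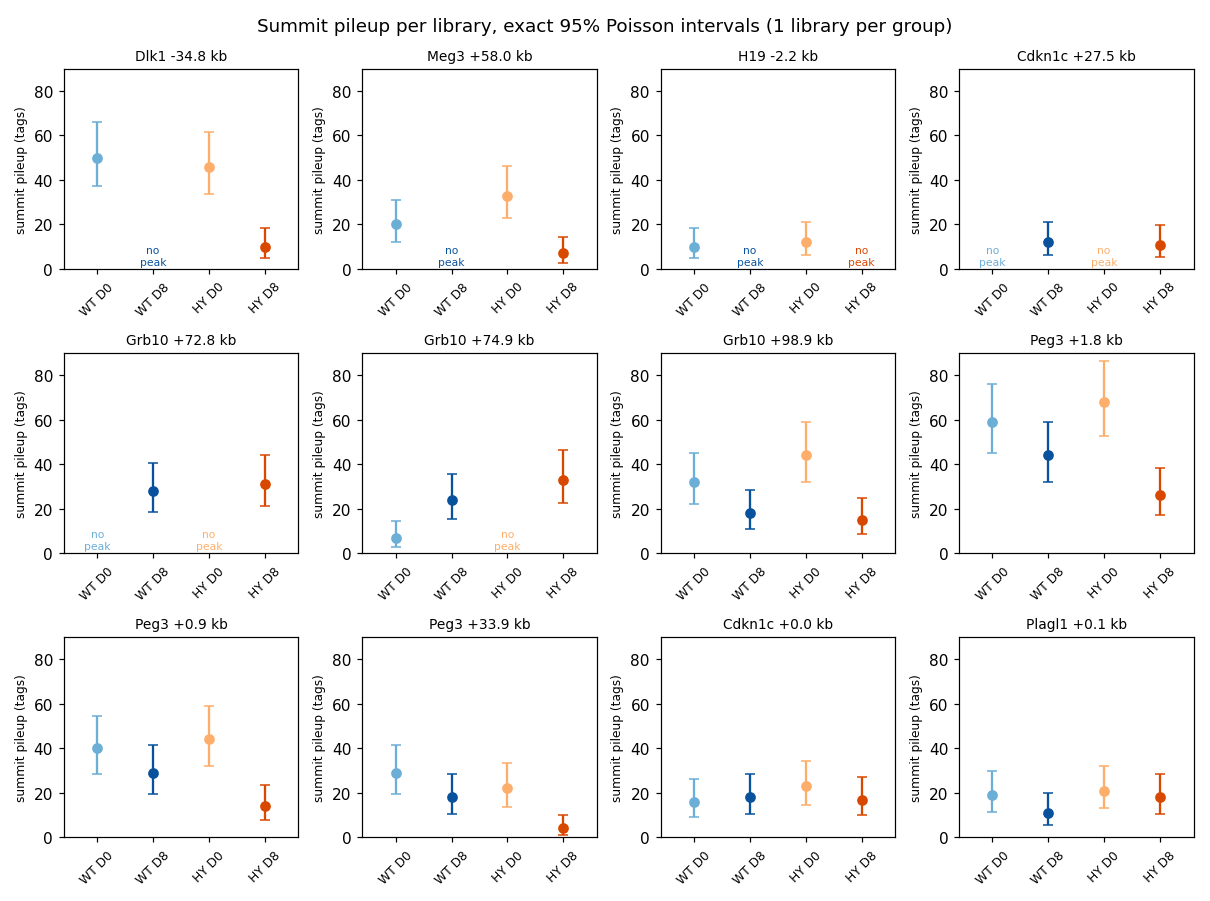
Summit pileup (overlapping tags, not scaled for depth) of 12 named sites in the 4 libraries, 1 panel per site, with points for single libraries and exact 95% Poisson intervals as error bars. HY D8 is the lowest point at the 3 Peg3 sites, and the Grb10 +72.8 kb site has points at D8 alone, 28 in WT and 31 in HY.

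Plagl1 (ENSMUSG00000019817.11, chr10:12810497-12851500, plus strand), a paternally expressed zinc finger factor that can act on other imprinted genes, was open at its promoter in all 4 libraries. This +0.1 kb site (chr10:12810356-12810910, in an exon) had 19 at D0 and 11 at D8 in WT, and 21 and 18 in HY. The ratio of D8 over D0 was 0.719 (0.309 to 1.59) for WT and 1.23 (0.616 to 2.42) for HY, with 1 inside both intervals and summits up to 144 bp apart. The +80.5 kb site, in an intron of Fam164b, had 14 in each D0 library and no D8 peak. The +47.3 kb site was called in HY D8 alone, with 8.

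At promoters, 5 of the 9 genes had a peak at D0 and 4 at D8, in WT and in HY alike. Mest, Cdkn1c, Grb10 and Plagl1 had one in every library, Dlk1 in WT D0 and Meg3 in HY D0 only, and Peg3, Igf2 and H19 in none. Of 28 other imprinted genes found in the annotation, 13 had a promoter peak at D0 and 7 at D8 in WT, and 16 and 10 in HY. No share over all annotated genes is given under this rule, so these promoter counts are no result about either list. Dio3, which encodes the deiodinase that inactivates thyroid hormone and closes the Dlk1 cluster, had 10 at D0 and 15 at D8 in WT, and 11 and 10 in HY. Copg2, beside Mest, had 50 and 34 in WT and 61 and 43 in HY, and Ddc, beside Grb10, had 15 in WT D0 alone. Igf2r, the receptor that clears IGF2, had 11 in WT D0, 17 in HY D0 and 14 in HY D8 with none in WT D8. Peaks at Gnas (29 and 36 in WT, 36 and 41 in HY) and Ube3a (53 and 48, 64 and 48) were called in every library, while Ndn had 17 and 8 at D0 in WT and HY and none at D8.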

How the data were processed

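ATAC-seq libraries of im-scWAT cells, 1 for each genotype and day, were compared through 4 deposited peak lists in narrowPeak form. The authors aligned reads to the mouse genome mm9 with Bowtie2, handled them with SAMtools and Picard, and called peaks per library; deepTools is also named in the submitters' notes. The methods name MACS3 for transcription factor peaks, and the lists have the form and the formulas of MACS, but the caller of the ATAC-seq peaks, exact versions, the calling threshold and any shift of reads for the transposase are not given in the sources used here. As deposited, each peak has a fold enrichment (the ratio of the summit pileup plus 1 to the local background plus 1), a -log10 p and a -log10 q, and a score that the authors' caller derived from the -log10 q and that was not used for any value. Replicates do not exist, so nothing was pooled and no test across replicates was possible.

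The whole-number pileup and the background were solved from the deposited fold enrichment and -log10 p of each peak (Poisson tail, tolerance 0.002). A second solution existed for 500 peaks (0.209%), of which 1 was a member's. The solver was tested on made-up peaks of known pileup and background. The ratio rule was not tested. Peaks outside the autosomes and the X and Y chromosomes (118 to 196 per list) were left out. Peaks overlapping by 1 bp formed a site, and the peak with the highest -log10 q gave a library's value. The lowest background of each list (WT 0.659 at D0 and 0.531 at D8, HY 0.708 and 0.494) stood for its depth, and total read counts were not used here. A change was called where a peak was in 1 library only or where scaled pileups differed by 2-fold or more. Intervals are exact Poisson limits for pileups and exact conditional binomial limits for ratios. A promoter ran from 1000 bp upstream to 100 bp downstream of a TSS of GENCODE vM1, on NCBIM37 (mm9), the source also of all sequences. A peak counted at a promoter when its summit lay within it. Sites with values are those at member promoters, the 3 highest of each gene, those called only at D8 in both genotypes, those past 2-fold in the same direction in both, and further sites chosen after their values were seen. The members, the marker lists and the motif letters were chosen with earlier results of these data known. Of 30 other imprinted genes, 28 matched the annotation by symbol. Alternatives were windows of 10 kb and 100 kb, joining by summits within 250 bp, a -log10 q of at least 5, lists of equal length, a threshold of 1.5-fold, ratios of fold enrichment, ratios centred on the median of shared sites, and sites whose nearest TSS is a member's. Python 3.11.15, NumPy 2.4.6, pandas 2.3.3 and SciPy 1.17.1 were used.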

Additional observations from a re-analysis of the deposited data

Results flagged for a closer look

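At 8 of the 12 member sites called in all 4 libraries (66.7%, beside 52.3% of the 24369 such sites of the genome), the genotype effect had opposite signs on the 2 days, or the day effect opposite signs in WT and HY. Values are log2 ratios of scaled pileups from 1 library each, and the difference was not tested. Several values lie near 0, where counting error alone can change the sign. At Peg3 +0.9 kb, the ratio of HY over WT went from 0.03 (D0) to -0.95 (D8), a difference of -0.98. At Peg3 +1.8 kb it was 0.10 and -0.66, a difference of -0.76. At Grb10 +98.9 kb it was 0.36 and -0.16 (-0.52), and at Grb10 +130.4 kb -0.10 and 0.48 (0.58), with D0 summits 277 bp apart. At Mest +14.5 kb it was 0.20 and -0.16 (-0.36), where the D8 peaks of WT and HY do not overlap. At Mest -29.8 kb, the Tsga14 promoter, it was -0.23 and 0.10 (0.33), with D8 summits 259 bp apart. At Mest -48.1 kb, in an intron of Tsga14, it was -0.47 and 0.30 (0.77), and D8 over D0 was -0.05 in WT and 0.71 in HY (0.76). At the Plagl1 promoter, D8 over D0 was -0.48 in WT and 0.30 in HY (0.78). Signs depended in part on the measure. By fold enrichment the Plagl1 ratios were 0.669 (WT) and 0.936 (HY), both below 1. At Mest -29.8 kb the ratios of HY over WT were then 0.91 (D0) and 0.955 (D8), again both below 1. Other sites kept opposite directions, such as Mest -48.1 kb with 0.776 (D0) and 1.18 (D8). Groups of 1 library allow no check for a sample far from the others.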

How the results depend on the processing

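With the longer lists trimmed to 41228 peaks each, the share of member sites called only at D8 was 35.7% in WT and 33.3% in HY (25.5% of all sites in each), and only at D0 in WT 32.1% (31.7% of all). Under the same setting the share at least 2-fold higher at D8 was 0% in WT and in HY (1.81% and 1.87% of all sites), and the share past 2-fold between genotypes 0% at D0 and at D8 (1.05% and 1.99%). These 4 shares were also 0% with a -log10 q of at least 5 (3.46%, 4.03%, 1.94% and 1.01% of all sites). Within 10 kb, and with only sites whose nearest TSS is a member's (chosen after seeing the data), the share higher at D8 in HY and the share past 2-fold between genotypes at D8 were 0% (5.27% and 2.19% of all sites). With 7 to 21 member sites each, these zeros are near the background. The share at least 2-fold lower at D8 in HY, 41.2% as reported, was 23.5% by fold enrichment and by centring, 26.7% within 100 kb and 28.6% for peaks of -log10 q 5 or more, each above the share of all sites (10.6%, 12.7%, 17.2% and 10.9%). Of the 7 sites, fold enrichment left Meg3 +58.0 kb, Mest +14.5 kb, Peg3 +33.9 kb and Grb10 +12.7 kb, and centring left Dlk1 -34.8 kb in place of Mest +14.5 kb. At 1.5-fold, 35.3% (6 of 17) differed between genotypes at D8, beside 15.3% of all sites. In all, 86 alternative values, those for sites lower in HY included, stayed within the binomial interval of the reported share. This is a weak check, since the interval treats sites as independent and was wide, 18.4% to 67.1% for sites lower in HY. The cause of the changes between settings was not tested, except that trimming removes weak peaks mostly from the D0 lists. No paired analysis was possible because each group has 1 library. Depth limits the weak sites most, since a pileup of 5 has limits of 1.62 and 11.7, and a site without a called peak has no known pileup.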
